A study of Mus musculus with 24 samples.

Results

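The genes of the voltage-gated sodium and calcium channels were examined in ribosome-bound RNA from the mouse spinal cord. Members were taken by symbol, under a rule that used no values but was set with earlier results of these data known. Every gene of the Scn, Cacna1, Cacna2d, Cacnb and Cacng series in the deposited files was included. This gave 40 genes of 38924. The pore-forming subunits numbered 20, with 10 sodium channel (Scn) and 10 calcium channel (Cacna1) genes. The accessory subunits numbered 20, with 4 sodium channel beta genes, 4 alpha2delta (Cacna2d), 4 calcium channel beta (Cacnb) and 8 gamma (Cacng) genes.

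RNA was collected by RiboTag from spinal cords of 8-week-old mice. Cells that make Cre recombinase incorporate a tagged form of the large-subunit protein Rpl22 into their ribosomes, which are then captured, with bound mRNA, through the tag. There were 4 groups of 6 mice, 1 library from each numbered mouse. C201R mice with Cre carried 1 copy of the Gars C201R allele, which alters glycyl-tRNA synthetase, together with 1 tagged Rpl22 allele and 1 ChAT-Cre allele. WT mice with Cre carried the tagged Rpl22 and ChAT-Cre alleles and wild-type Gars. C201R and WT mice without Cre carried 1 tagged Rpl22 allele and no ChAT-Cre allele, and gave the background pulldowns of each genotype. All 4 groups were on the B6.CgxB6.129 background. ChAT-Cre acts in every cholinergic cell, so the pulldowns with Cre hold cholinergic interneurons and preganglionic neurons beside motor neurons. Genotypes were compared with Cre and without it, and pulldowns with Cre were compared with those without it in each genotype. In bulk RNA of this kind, fewer cells and less RNA per cell cannot be told apart.

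A voltage-gated sodium channel is built around a large alpha subunit that forms the pore and carries the upstroke of the action potential. Its beta subunits are small membrane proteins that alter gating and attach the channel to neighbouring molecules. A voltage-gated calcium channel likewise has a large pore-forming subunit, joined by a cytoplasmic beta subunit and an extracellular alpha2delta subunit that help it reach the membrane. In motor neurons calcium entry through these channels triggers acetylcholine release at the muscle and supports sustained firing. The gamma family is named for calcium channels, but Cacng2, Cacng3, Cacng4, Cacng5, Cacng7 and Cacng8 encode partners of AMPA-type glutamate receptors, while Cacng1 and Cacng6 are best known from muscle channels.

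The libraries held 12.1 to 21.03 M expected counts in C201R mice with Cre, 13.5 to 28.3 M in WT mice with Cre, 8.90 to 14.3 M in C201R mice without Cre and 9.14 to 13.4 M in WT mice without Cre. Channel genes took 4609 to 45191 counts of the C201R libraries with Cre and 9777 to 72103 counts of the WT libraries with Cre. Mitochondrial transcripts held 3.03% to 15.8% of counts in C201R mice with Cre and 1.24% to 17.1% in WT mice with Cre, against 35.2% to 49.6% in C201R and 42.1% to 55.5% in WT mice without Cre. The transcript Gm26924 averaged 25.4% of counts in C201R mice with Cre and 13.2% in WT mice with Cre. The library of C201R mouse 14003-1 and that of WT mouse 14701-9 stood apart among those with Cre. They held the highest mitochondrial share of their groups and the lowest summed channel signal, 850 CPM (counts scaled to library size) in mouse 14003-1 and 931 CPM in mouse 14701-9. The other libraries with Cre reached 985 to 1310 CPM in C201R mice and 1384 to 1710 CPM in WT mice. The summed CPM of 6 cholinergic markers averaged 1047 in C201R and 1211 in WT mice with Cre, against 47.8 in C201R and 99.2 in WT mice without Cre. Gars itself was higher in C201R than WT mice with Cre (log2 change 0.80 ± 0.12, adjusted p 0.0020, edgeR); counts per gene cannot show the C201R base change. CPM values were scaled with TMM factors over all 24 libraries.

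**Figure D1:**
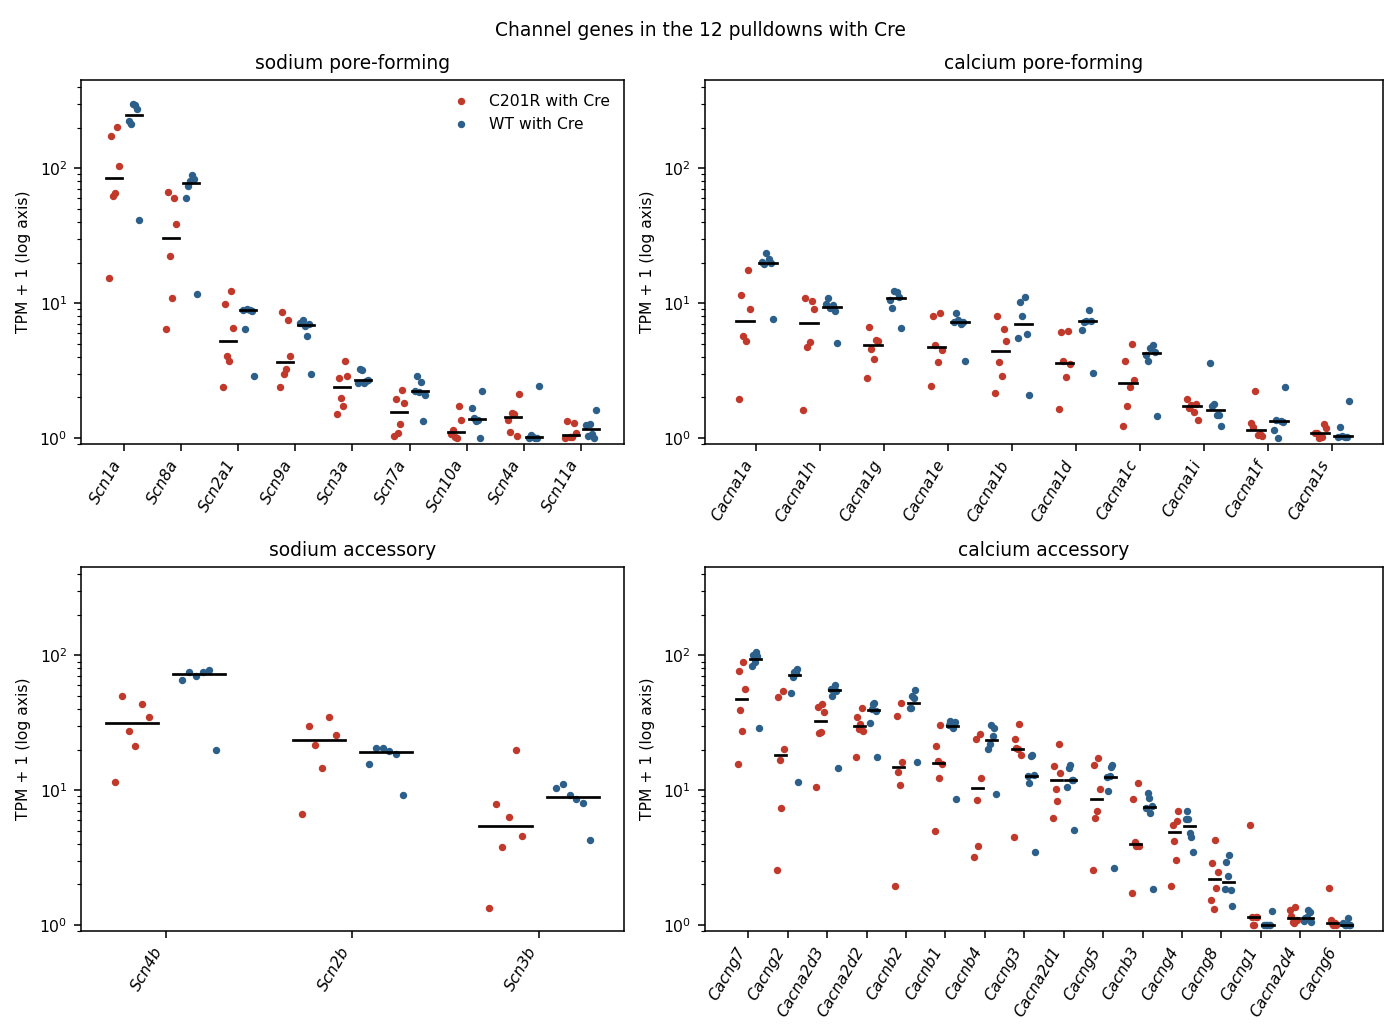
TPM plus 1, on a log axis, of 38 of the channel genes in the 12 pulldowns with Cre. Each point is 1 library, C201R left of WT, and bars are group medians. Scn1a had the highest mean of the pore-forming genes, 163 TPM, and Cacng7 the highest mean of the calcium channel accessory genes, 66.5 TPM.

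Levels of different genes were set side by side in TPM, the deposited transcript level per length and per library total. TPM is shared with Gm26924 and mitochondrial RNA, so shares within a class were used between groups. Scn1a, a fast sodium channel of axon initial segments and nodes of Ranvier, gave most of the pore-forming sodium channel signal in TPM. It held 69.0% ± 6.25 of the summed TPM of the 10 genes in C201R mice with Cre and 72.3% ± 3.46 in WT mice with Cre (SD, n = 6 each). Its share was 54.7% ± 5.15 in C201R and 47.4% ± 2.86 in WT mice without Cre. Scn8a, the main channel of mature nodes, came next, with shares of 21.7% ± 4.91 in C201R and 20.9% ± 2.51 in WT mice with Cre, against 26.7% ± 2.67 in C201R and 32.8% ± 4.44 in WT mice without Cre. The ranges of the Scn1a and Scn8a shares did not overlap with each other in any group. Deposited lengths with Cre were 3224 to 4790 bases in C201R and 3185 to 3839 bases in WT mice for Scn1a. For Scn8a they were 10110 to 11233 bases in C201R and 10513 to 10713 bases in WT mice. CPM is not divided by length. With Cre, Scn1a averaged 194 CPM and Scn8a 174 CPM in C201R mice, and 293 CPM and 271 CPM in WT mice. Without Cre, Scn1a averaged 172 CPM and Scn8a 194 CPM in C201R mice, and 165 CPM and 241 CPM in WT mice. Over the 12 libraries with Cre, Scn2a1 (now Scn2a) averaged 5.99 TPM, Scn9a 4.495 TPM and Scn3a 1.62 TPM, and the ranges of these 3 genes overlapped. Scn7a, Scn10a, Scn4a and Scn11a each averaged under 1 TPM.

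No calcium channel gene dominated in that way. Cacna1a, the P/Q-type channel that drives transmitter release at the neuromuscular junction, held 21.6% ± 6.46 of the summed Cacna1 TPM in C201R mice with Cre and 30.5% ± 2.78 in WT mice with Cre. Without Cre its share was 35.6% ± 7.06 in C201R mice and 35.4% ± 6.61 in WT mice. These shares also rest on deposited lengths. For Cacna1a in C201R mice these ran from 4248 to 6694 bases with Cre and 1717 to 2966 bases without Cre. In WT mice they ran from 3697 to 6883 bases with Cre and 2388 to 3935 bases without Cre. With Cre, Cacna1a averaged 19.3 CPM and Cacna1e 31.0 CPM in C201R mice, and 38.6 CPM and 31.3 CPM in WT mice. Without Cre, Cacna1a averaged 35.7 CPM and Cacna1e 87.4 CPM in C201R mice, and 47.1 CPM and 80.1 CPM in WT mice. Of the T-type genes, Cacna1h held 17.8% ± 5.88 in C201R and 14.2% ± 1.66 in WT mice with Cre. Cacna1g held 13.97% ± 4.56 in C201R and 16.96% ± 3.04 in WT mice with Cre. The R-type gene Cacna1e held 14.4% ± 2.49 in C201R and 10.4% ± 1.06 in WT mice with Cre. The N-type gene Cacna1b held 12.1% ± 2.15 in C201R and 10.0% ± 4.03 in WT mice with Cre, and the L-type gene Cacna1d held 9.43% ± 1.41 in C201R and 9.86% ± 1.27 in WT mice with Cre. In C201R mice with Cre the ranges of Cacna1a, Cacna1h, Cacna1g and Cacna1e overlapped, so their order was not set beyond the spread between mice. Among accessory genes, Cacng7 averaged 66.5 TPM over the 12 libraries with Cre, Scn4b 46.7 TPM, Cacng2 41.7 TPM and Cacna2d3 38.8 TPM. The ranges of these 4 genes overlapped.

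**Figure D2:**
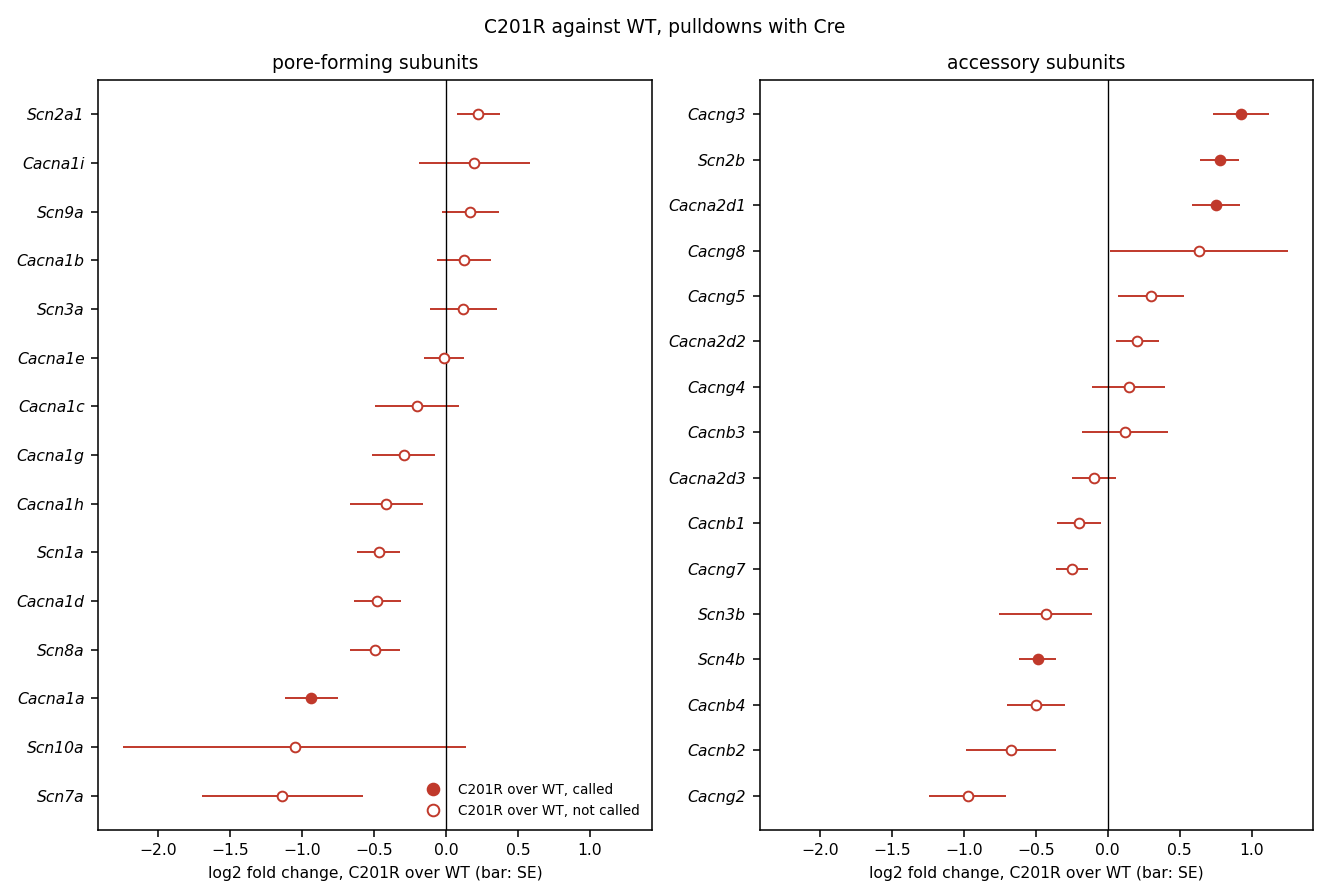
Log2 fold change of 31 of the 32 tested channel genes, C201R over WT in pulldowns with Cre, with the SE as bars. Filled points passed the adjusted p threshold of 0.05. Cacna1a at -0.94 and Scn4b at -0.49 are filled left of 0, and Cacng3 at 0.93, Scn2b at 0.78 and Cacna2d1 at 0.75 are filled right of it.

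Between genotypes in pulldowns with Cre, 3 accessory genes were higher in C201R mice, Scn2b, Cacna2d1 and Cacng3. Cacna1a and the accessory gene Scn4b were lower. The test was edgeR's robust quasi-likelihood F test on rounded expected counts, with Benjamini-Hochberg adjustment over all genes and a call at an adjusted p under 0.05. Of the 40 channel genes 32 had enough counts to be tested, and 27 were not called. Over all 14634 genes tested 4.11% were called, 2.29% higher and 1.82% lower in C201R mice. Of the 15 pore-forming genes tested, 0 were higher and 1 was lower, with a median log2 change of -0.30. Of the 17 accessory genes tested, 3 were higher and 1 was lower, with a median of 0.01. The median over all genes tested was -0.01. The called genes moved with other differences between these groups whose part in the changes was not tested. Chodl, a marker of fast motor neurons, was lower in C201R mice at 195 ± 25.9 CPM, against 415 ± 83.7 CPM in WT mice (log2 change -1.02, adjusted p 0.00063, edgeR). Chat, Slc5a7, Isl1, Mnx1 and Prph were not called. Summed markers of Schwann cells and fibroblasts ran from 190 to 299 CPM in C201R mice and from 338 to 491 CPM in WT mice, and Pmp22 and Dcn were called lower of the 6. Markers of other spinal neurons summed to 155 ± 21.7 CPM in C201R and 122 ± 19.3 CPM in WT mice, with 0 of 7 tested called. Scaled to library totals instead, the median of all genes moved to -0.26, no channel gene was called, and each of the 5 genes kept the sign of its change. With the Gm26924 share of each library as a covariate, 1 channel gene, Cacng3, was called.

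Cacna1a had 10.9, 17.5 and 32.1 CPM as lowest, median and highest values in C201R mice with Cre, against 22.9, 40.6 and 47.1 CPM in WT mice with Cre. Of the C201R libraries 5 lay below 24 CPM, and 5 of the WT libraries lay above 37 CPM, the exception being the outlying mouse 14701-9. The groups overlapped only through that library. The log2 change was -0.94 ± 0.18 (SE; adjusted p 0.011, edgeR). In library series 1 Cacna1a averaged 13.2 CPM in 3 C201R mice and 32.1 CPM in 2 WT mice, and in library series 2 it averaged 25.3 CPM in 3 C201R mice and 41.9 CPM in 4 WT mice. The difference had the same sign in both series, which are runs of library numbers. The antisense gene Gm16183, which overlaps Cacna1a, had 0.033 CPM in C201R and 0.23 CPM in WT mice with Cre. Without C201R mouse 14703-4 the adjusted p was 0.057, and in a fit without the library series term it was 0.054.

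Scn2b and Scn4b encode beta subunits that bind the sodium channel pore through a disulphide bond, and Scn4b is known for its part in resurgent sodium current. The genes lie next to each other on chromosome 9, with 0 protein-coding genes between them, and they differed in opposite directions. Scn2b had 44.8, 51.5 and 64.3 CPM as lowest, median and highest values in C201R mice with Cre, against 25.4, 31.0 and 35.7 CPM in WT mice with Cre. The groups did not overlap. The log2 change was 0.78 ± 0.14 (adjusted p 0.0053, edgeR), and the gene was called whichever of the 12 libraries was left out. Scn4b had 71.7, 89.2 and 90.2 CPM in C201R mice with Cre, against 89.0, 127 and 140 CPM in WT mice with Cre. All C201R libraries were at or below 90.2 CPM, and the only WT library in that range was mouse 14701-9. The log2 change was -0.49 ± 0.13 (adjusted p 0.046, edgeR). This call was the least firm of the 5 and was made in 3 of the 12 fits that left out 1 library. Without C201R mouse 14003-1 and WT mouse 14701-9 the change in Scn4b was -0.59 with an adjusted p of 0.0027 (edgeR). Both libraries were marked partly by low summed channel signal, so that fit was not independent of channel levels. A gene on the opposite strand, Gm10684, overlaps Scn2b in the GENCODE annotation and had 1.29 CPM in C201R and 3.40 CPM in WT mice with Cre. Whether counting used strand is not given in the sources used here.

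The promoter windows of the neighbouring pair are shown because the genes differed in opposite directions. Each runs from 250 bases before to 50 bases after the start of the RefSeq gene on the plus strand of GRCm38.p6, 5′ to 3′, with CG dinucleotides in capitals. The window of Scn2b is chr9:45117626-45117925 and that of Scn4b is chr9:45138374-45138673.
Scn2b: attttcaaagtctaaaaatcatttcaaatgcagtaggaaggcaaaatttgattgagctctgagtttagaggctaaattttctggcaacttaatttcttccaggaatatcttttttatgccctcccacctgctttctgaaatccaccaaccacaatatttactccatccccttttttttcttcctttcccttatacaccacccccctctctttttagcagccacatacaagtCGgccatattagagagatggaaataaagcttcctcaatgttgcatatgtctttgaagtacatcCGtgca
Scn4b: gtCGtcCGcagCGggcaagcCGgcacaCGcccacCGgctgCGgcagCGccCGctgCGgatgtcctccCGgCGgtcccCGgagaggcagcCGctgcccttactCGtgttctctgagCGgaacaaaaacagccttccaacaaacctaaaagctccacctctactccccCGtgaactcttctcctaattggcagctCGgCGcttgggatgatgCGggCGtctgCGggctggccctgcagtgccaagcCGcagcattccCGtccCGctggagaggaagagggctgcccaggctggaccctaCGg
The Scn2b window held 2 CG dinucleotides and was 38.3% G or C, and 85.9% of all 32851 windows of that length held at least as many. The Scn4b window held 26 CG dinucleotides and was 66.3% G or C, and 16.9% of windows held at least as many. The Cacna2d1 window held 42 and the Cacng3 window 9, against a median of 7 over all windows. RefSeq gave 41 windows for 30 of the 40 channel genes. The GC box GGGCGG stood on either strand in 16 of the 41, beside 35.7% of all windows. The C/EBP-ATF element core TGATGNAA stood in 2 of the 41, those of Cacna1c and Scn9a, beside 3.97% of all windows, and in none of the windows of Scn2b, Scn4b, Cacna2d1 and Cacng3. These matches describe letters only.

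Cacna2d1 encodes the alpha2delta subunit that binds gabapentin and promotes channel delivery to axon terminals. It had 33.2, 40.2 and 57.8 CPM as lowest, median and highest values in C201R mice with Cre, against 20.96, 25.1 and 28.4 CPM in WT mice with Cre, and the groups did not overlap. The log2 change was 0.75 ± 0.17 (adjusted p 0.022, edgeR). Cacng3, an AMPA receptor partner, had 9.97, 15.4 and 20.4 CPM in C201R mice with Cre, against 5.90, 8.35 and 11.2 CPM in WT mice with Cre. Only C201R mouse 14003-1 fell within the WT range. The log2 change was 0.93 ± 0.19 (adjusted p 0.017, edgeR). CPM ranges of the genotypes did not overlap for 3 of the 32 genes tested, Scn2b, Cacna2d1 and Cacna1d, beside 2.95% of all genes tested.

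**Figure D3:**
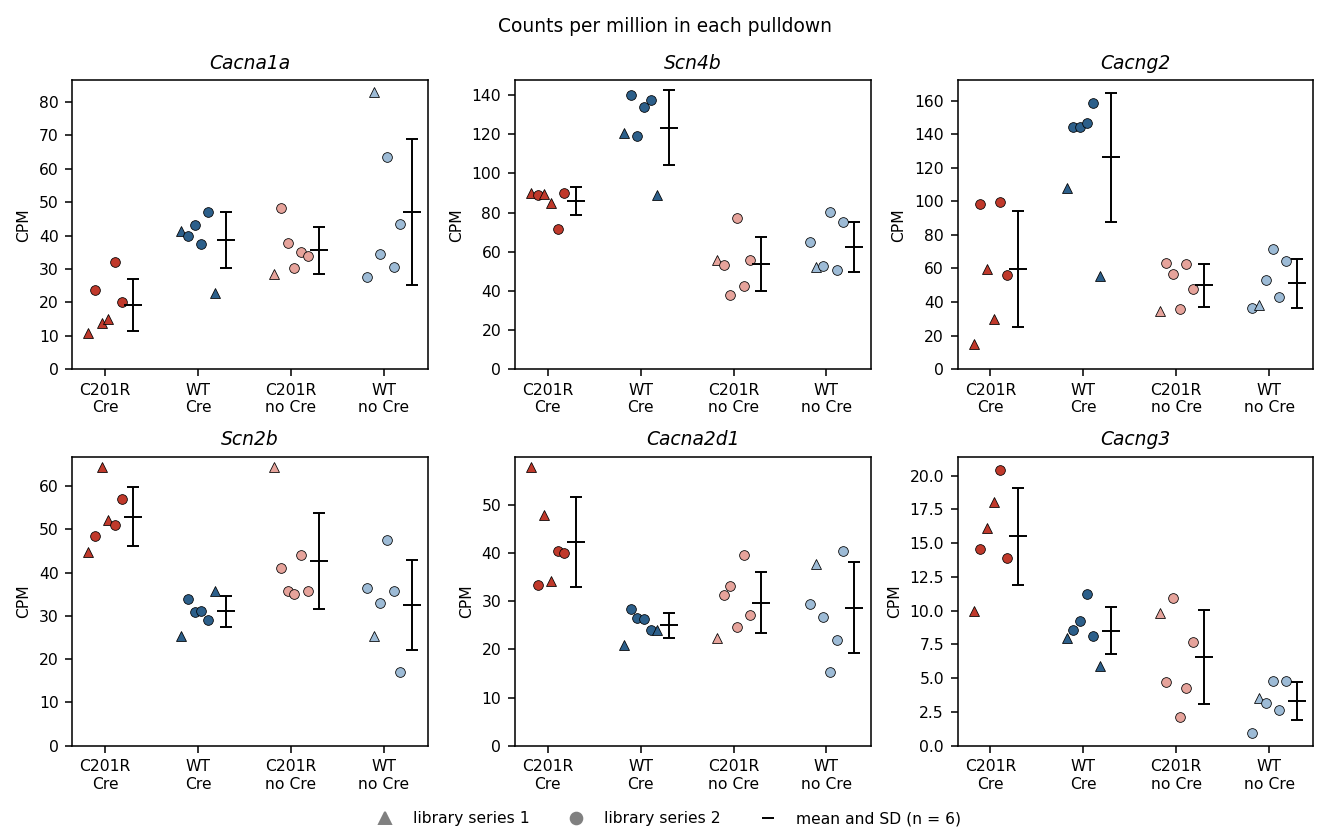
CPM of the 5 channel genes called between genotypes with Cre, and of Cacng2, in each of the 24 pulldowns. Triangles are library series 1, circles library series 2, and bars the mean and SD of 6 mice. With Cre, the upper row lies lower in C201R than in WT mice, with overlap, and the lower row lies higher; Cacng2 was not called.

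The most abundant pore-forming genes were not called between genotypes. Scn1a had 118, 207 and 233 CPM as lowest, median and highest values in C201R mice with Cre, against 148, 313 and 373 CPM in WT mice with Cre (log2 change -0.47 ± 0.15, adjusted p 0.099, edgeR). Scn8a had 95.0, 189 and 256 CPM in C201R mice with Cre, against 108, 303 and 347 CPM in WT mice with Cre (log2 change -0.49 ± 0.18, adjusted p 0.14, edgeR). In Scn1a the 5 WT libraries other than mouse 14701-9 lay above every C201R library, and in Scn8a 4 of them did. Cacng2, or stargazin, had 14.8, 57.9 and 99.5 CPM in C201R mice with Cre, against 55.6, 144 and 158 CPM in WT mice with Cre (log2 change -0.97 ± 0.27, adjusted p 0.057, edgeR). The C201R libraries were spread widely, and the ranges overlapped. Cacna1d averaged 14.6 ± 2.86 CPM in C201R and 21.1 ± 3.18 CPM in WT mice with Cre without overlap, but was not called (log2 change -0.48 ± 0.16, adjusted p 0.12, edgeR). Without mice 14003-1 and 14701-9, which stood apart, Scn1a, Scn8a, Cacng2, Cacna1g and Cacnb2 were called lower as well, and 10 channel genes were called in all. Both mice were marked partly by their low summed channel signal, so leaving them out was not independent of channel levels. The added calls are therefore no separate support. Cacng7 averaged 57.2 ± 5.82 CPM in C201R and 70.6 ± 9.70 CPM in WT mice with Cre (log2 change -0.25 ± 0.11, adjusted p 0.25, edgeR), and Cacna1h 8.45 ± 3.43 CPM in C201R and 11.8 ± 1.78 CPM in WT mice with Cre (log2 change -0.42 ± 0.25, adjusted p 0.41, edgeR). Cacna1e averaged 31.0 ± 3.93 CPM in C201R and 31.3 ± 3.31 CPM in WT mice with Cre (log2 change -0.01 ± 0.14).

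In the background pulldowns, C201R against WT mice without Cre, 0 of the 31 channel genes tested were called by edgeR, by DESeq2 or by limma-voom, and 2 had an unadjusted p under 0.05 in edgeR. Over all 14400 genes tested the share called was 0% and 455 had an unadjusted p under 0.05. Scn2b averaged 42.7 ± 11.2 CPM in C201R and 32.5 ± 10.5 CPM in WT mice without Cre, and Cacna1a averaged 35.7 ± 7.03 CPM in C201R and 47.1 ± 21.8 CPM in WT mice without Cre. Cacng3 averaged 6.58 ± 3.46 CPM in C201R and 3.32 ± 1.44 CPM in WT mice without Cre, a log2 change of 0.95 ± 0.44 that was not called (adjusted p 1.00, edgeR). The sign of the change was the same as with Cre for Scn2b, Cacna1a, Cacna2d1, Cacng3 and Scn4b. A test of the difference between the genotype effects with and without Cre, the interaction over 24 libraries, called 0 of 36 channel genes, with 3 at an unadjusted p under 0.05, beside 0.13% of all 16109 genes, 0.0993% higher and 0.031% lower. DESeq2 and limma-voom also called 0 in the interaction. A genotype effect on channel genes confined to pulldowns with Cre was therefore not shown.

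**Figure D4:**
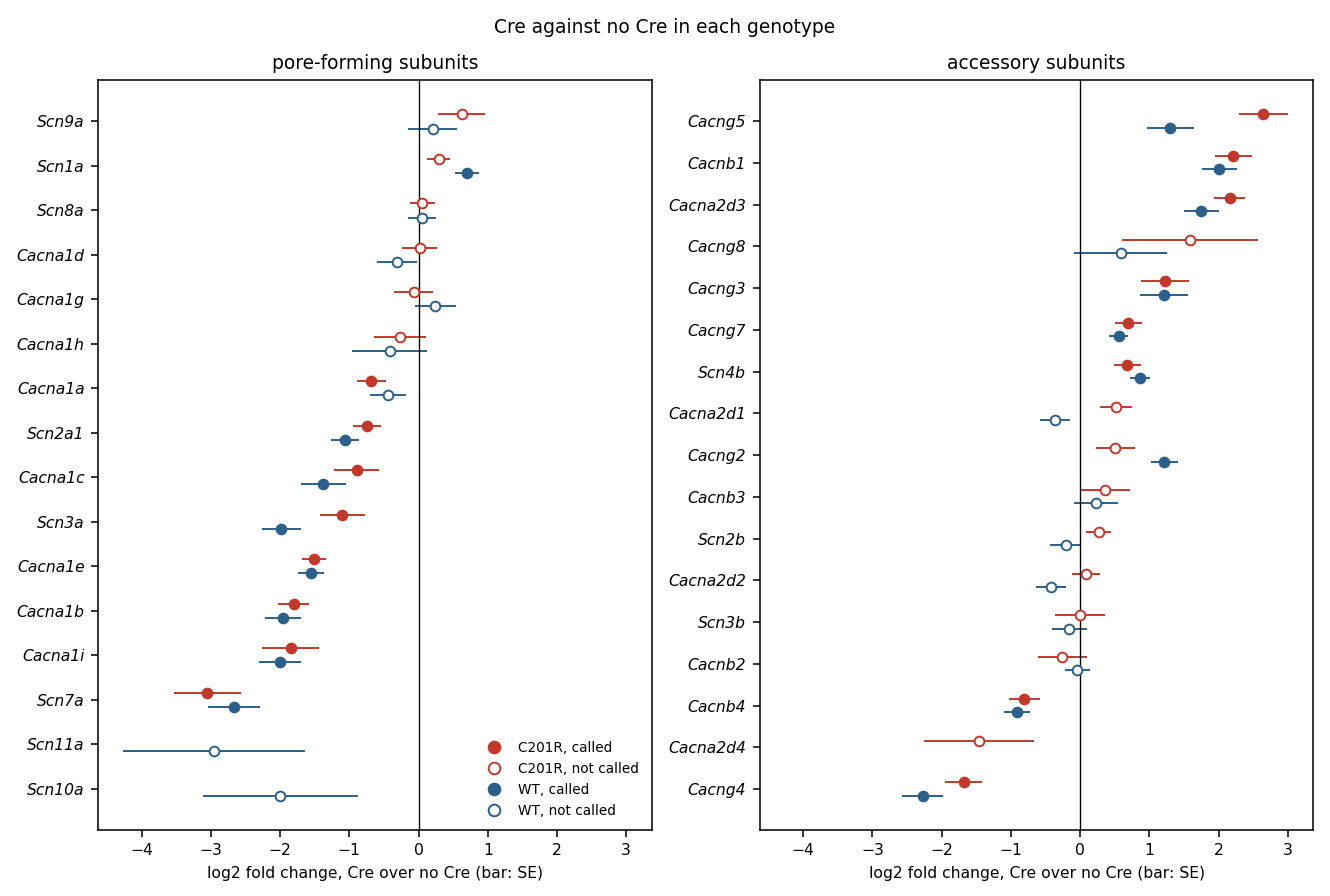
Log2 fold change of channel genes, Cre over no Cre, in C201R mice and in WT mice, with the SE as bars. Filled points passed the adjusted p threshold of 0.05. Pore-forming genes lie mostly at or left of 0, with Scn1a in WT mice the 1 filled point to the right, and 6 of the accessory genes drawn are filled to the right in both genotypes.

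With TMM scaling, more pore-forming channel genes were called lower than higher with Cre, and more accessory genes higher than lower. Of the 14 pore-forming genes tested in C201R mice, 0 were higher and 8 lower with Cre, and of the 16 tested in WT mice 1 was higher and 7 lower. Of the accessory genes, 7 were higher and 2 lower among 18 tested in C201R mice, and 8 were higher and 2 lower among 17 tested in WT mice. Over all genes tested, 30.5% were higher and 26.3% lower in C201R mice, and 27.7% were higher and 32.8% lower in WT mice, which makes 56.8% called in C201R and 60.6% in WT mice. CPM ranges did not overlap for 9 of 32 channel genes in C201R mice, beside 33.3% of all genes, and for 14 of 33 in WT mice, beside 35.2%. The median change of the pore-forming genes tested was -0.71 in C201R and -1.22 in WT mice, and that of the accessory genes was 0.51 in C201R and 0.56 in WT mice, beside medians over all genes of 0.06 and -0.10 in C201R and WT mice. These counts depended on scaling. With library totals in place of TMM the median of all genes moved to 0.64 in C201R and 0.84 in WT mice, and the split of called channel genes, 7 higher and 10 lower in C201R mice and 9 and 9 in WT mice, became 13 higher and 5 lower in C201R and 16 higher and 5 lower in WT mice. Under library totals 2 pore-forming genes were higher and 4 lower in C201R mice, and 4 were higher and 4 lower in WT mice, with medians of -0.16 in C201R and -0.27 in WT mice. RLE scaling moved the median of all genes in C201R mice to -0.12 and left the split of 7 higher and 10 lower as it was. Summed markers of other spinal neurons were at 155 CPM in C201R and 122 CPM in WT mice with Cre, against 458 CPM in C201R and 463 CPM in WT mice without Cre. All 6 oligodendrocyte markers, all 6 astrocyte markers and all 6 endothelial and mural markers were lower with Cre in both genotypes. The part of these cells in the channel differences was not tested.

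The same 7 accessory genes were called higher with Cre in both genotypes, among them Cacna2d3, Cacnb1, Cacng3, Cacng5 and Cacng7. They made up 100% of the channel genes higher in C201R mice and 77.8% of those higher in WT mice, where Cacng2 and Scn1a were called as well. The same overlap was not computed over all genes tested, of which 30.5% were higher in C201R and 27.7% in WT mice. Of the channel genes called higher, Cacng5 had the largest rise in C201R mice. It had 9.97, 18.4 and 20.4 CPM as lowest, median and highest values with Cre, against 1.13, 3.78 and 5.33 CPM without Cre (log2 change 2.65 ± 0.36, adjusted p 7.3e-06, edgeR). In WT mice it had 5.71, 15.5 and 19.01 CPM with Cre, against 2.08, 5.78 and 7.70 CPM without Cre (log2 change 1.30 ± 0.34, adjusted p 0.0037, edgeR). Only in WT mice did the Cacng5 ranges meet. Cacnb1, known as the beta subunit of the muscle channel and also expressed in neurons, had the largest rise among the channel genes called higher in WT mice. It had 20.0, 23.3 and 26.8 CPM with Cre, against 2.57, 5.51 and 7.23 CPM without Cre in WT mice (log2 change 2.01 ± 0.26, adjusted p 6.5e-06, edgeR). In C201R mice it had 14.9, 20.6 and 24.4 CPM with Cre, against 3.33, 4.39 and 6.53 CPM without Cre (log2 change 2.22 ± 0.27). All libraries with Cre lay above all those without it in both genotypes. Cacna2d3, an alpha2delta subunit, averaged 63.9 ± 10.7 CPM with Cre and 14.4 ± 4.57 CPM without Cre in C201R mice, and 68.7 ± 11.1 CPM with Cre and 18.1 ± 8.45 CPM without Cre in WT mice.

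Scn1a was called higher with Cre in WT mice (log2 change 0.70 ± 0.17, adjusted p 0.0024, edgeR) and not in C201R mice (0.29 ± 0.16, adjusted p 0.13, edgeR). Cacng2 followed the same pattern, with log2 changes of 1.22 ± 0.19 in WT mice (adjusted p 5.4e-05, edgeR) and 0.51 ± 0.28 in C201R mice (adjusted p 0.13, edgeR). The test of the difference itself, the interaction, called neither: its log2 values were -0.58 ± 0.24 for Scn1a (adjusted p 0.45, edgeR) and -0.96 ± 0.35 for Cacng2 (adjusted p 0.41, edgeR). Cacna1a was called lower with Cre in C201R mice (-0.68 ± 0.21, adjusted p 0.010, edgeR) and not in WT mice (-0.44 ± 0.25, adjusted p 0.14, edgeR), and its interaction was -0.55 ± 0.37 (adjusted p 0.70, edgeR). Scn8a was not called in either genotype, with log2 changes of 0.06 ± 0.18 in C201R and 0.05 ± 0.20 in WT mice.

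Of the channel genes lower with Cre, 9 were shared by both genotypes: Cacna1b, Cacna1c, Cacna1e, Cacna1i, Cacnb4, Cacng4, Scn2a1, Scn3a and Scn7a. They were 90% of those lower in C201R mice and 100% of those lower in WT mice. This overlap was not computed over all genes tested, of which 26.3% were lower in C201R and 32.8% in WT mice. Cacna1e averaged 31.0 ± 3.93 CPM with Cre and 87.4 ± 10.6 CPM without Cre in C201R mice (log2 change -1.51 ± 0.17, adjusted p 1.2e-06, edgeR), and 31.3 ± 3.31 CPM with Cre and 80.1 ± 30.9 CPM without Cre in WT mice (log2 change -1.55 ± 0.18). Cacna1b averaged 15.5 ± 2.39 CPM with Cre and 53.4 ± 15.4 CPM without Cre in C201R mice, and 14.8 ± 3.45 CPM with Cre and 51.8 ± 24.02 CPM without Cre in WT mice. In both genes no library with Cre reached the lowest library without Cre, in either genotype. Cacng4, an AMPA receptor partner found in glial as well as neuronal cells, averaged 6.96 ± 2.17 CPM with Cre and 23.6 ± 5.01 CPM without Cre in C201R mice, and 6.35 ± 1.56 CPM with Cre and 27.7 ± 12.6 CPM without Cre in WT mice. Cacnb4 was lower in both genotypes, at 43.5 ± 19.4 CPM with Cre and 94.0 ± 26.5 CPM without Cre in C201R mice. In WT mice it averaged 65.7 ± 16.3 CPM with Cre and 113 ± 28.4 CPM without Cre. Its log2 change of -0.91 in WT mice became 0.037 when libraries were scaled to their totals. Library totals also removed the calls of Cacna1c and Scn2a1 in both genotypes, Cacna1e in WT mice and Scn3a and Cacnb4 in C201R mice. The Gm26924 share as a covariate removed those of Cacna1c in both genotypes and of Cacna1i, Scn2a1 and Cacnb4 in C201R mice.

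Cacng4 and Cacng5 lie next to each other on chromosome 11, with 0 protein-coding genes between them, and were called in opposite directions, Cacng5 higher and Cacng4 lower with Cre in both genotypes. Scn9a and Scn7a are adjacent on chromosome 2. Scn9a averaged 16.9 ± 3.11 CPM with Cre and 11.2 ± 6.12 CPM without Cre in C201R mice, and 16.0 ± 4.36 CPM with Cre and 12.3 ± 6.37 CPM without Cre in WT mice, and was not called in either, while Scn7a was called lower in both.

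Scn7a, a sodium-sensing member of the family expressed in glia and Schwann cells, had the largest fall of the channel genes called lower in each genotype. It had 0.37, 2.11 and 3.30 CPM as lowest, median and highest values with Cre in C201R mice, against 11.1, 12.2 and 59.2 CPM without Cre (log2 change -3.05 ± 0.49, adjusted p 5.3e-05, edgeR). In WT mice it had 0.91, 3.94 and 7.62 CPM with Cre, against 14.8, 17.2 and 32.9 CPM without Cre (log2 change -2.66 ± 0.38, adjusted p 1.8e-05, edgeR). The groups did not overlap in either genotype. The highest value came from C201R mouse 14702-9 without Cre, whose summed Schwann cell and fibroblast markers, 1229 CPM, were also the highest of the 24 libraries.

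**Figure D5:**
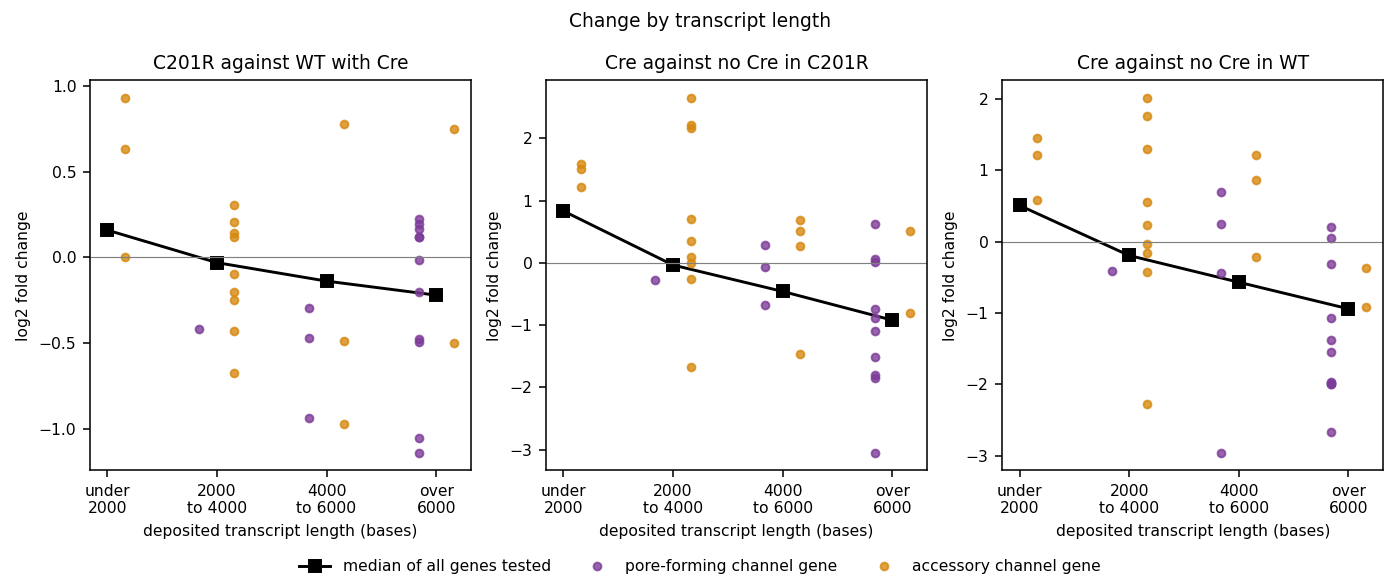
Log2 fold change by deposited transcript length in 3 comparisons. Squares joined by lines are medians over all genes tested in each length class, and points are tested channel genes. The medians of all genes are lower in each longer class, reaching -0.22, -0.92 and -0.94 over 6000 bases.

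Channel transcripts are long, and long transcripts as a whole were more often lower than higher with Cre. The channel genes tested between genotypes with Cre had a median length of 4704 bases, beside 2520 bases over all genes tested. Among all genes over 6000 bases, 55.0% were lower and 9.44% higher with Cre in C201R mice, and 59.5% were lower and 9.90% higher in WT mice. Of the channel genes in that length class, 8 of 12 were lower and 0 higher in C201R mice, and 8 of 13 were lower and 0 higher in WT mice. Their median changes were -0.85 in C201R and -1.37 in WT mice, beside -0.92 and -0.94 over all genes of that length in C201R and WT mice. Pore-forming genes fill most of that class, so length and the pore-forming role cannot be told apart there. Under 2000 bases, 44.3% of genes were higher and 16.4% lower with Cre in C201R mice, and 38.4% higher and 21.3% lower in WT mice. Of the 3 channel genes there, 2 were higher and 0 lower in each genotype. From 2000 to 4000 bases, 27.6% of genes were higher and 25.7% lower in C201R mice, and 25.4% higher and 33.6% lower in WT mice. Of the 10 channel genes there, 4 were higher and 1 lower in each genotype. The part of length in the accessory calls was not tested. Between genotypes with Cre, all genes over 6000 bases had a median change of -0.22, with 4.74% lower and 0.505% higher in C201R mice. The 13 channel genes of that length had a median of -0.01, with 1 higher, Cacna2d1, and 0 lower. From 4000 to 6000 bases all genes had a median change of -0.14, with 3.56% lower and 1.09% higher in C201R mice. The 6 channel genes of that class had a median of -0.48, with 2 lower, Cacna1a and Scn4b, and 1 higher, Scn2b. Genes under 2000 bases had a median change of 0.16, with 3.90% higher, and Cacng3 belongs to that class.

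Members with low counts were read beside the markers of cells known to use them. Scn10a and Scn11a are channels of sensory neurons of the dorsal root ganglion. Scn10a reached 21.6 CPM and Scn11a 7.41 CPM in C201R mouse 14702-9 without Cre, and Scn10a reached 13.1 CPM and Scn11a 9.97 CPM in WT mouse 14701-1 without Cre. Summed markers of those neurons were 14.3 CPM in mouse 14702-9 and 8.43 CPM in mouse 14701-1, beside a median of 0.82 CPM in C201R and 4.95 CPM in WT mice without Cre. Not all libraries paired in that way. WT mouse 14702-6 without Cre had the highest sensory markers of its group, 10.7 CPM, with Scn10a at 2.70 CPM, and C201R mouse 14003-1 with Cre had markers of 7.75 CPM with Scn10a at 0.74 CPM and Scn11a at 0. WT mouse 14701-9 with Cre had Scn10a at 7.62 CPM with markers of 2.48 CPM. Cacna1s and Scn4a form the skeletal muscle channels. Cacna1s stood highest in WT mouse 14702-6, at 6.995 CPM, and C201R mouse 14003-2, at 6.43 CPM, both without Cre, and these libraries also had the highest summed muscle markers, 606 CPM in mouse 14702-6 and 587 CPM in mouse 14003-2. Scn4a did not follow those markers: it was highest in C201R mouse 14004-7 without Cre, at 2.10 CPM with muscle markers of 35.9 CPM, and had 0.64 CPM in mouse 14702-6. Among libraries with Cre, Cacng1 was highest at 8.86 CPM and Cacng6 at 2.58 CPM, both in C201R mouse 14003-1, whose muscle markers summed to 299 CPM. Other libraries did not follow the markers in that way. WT mouse 14701-9 with Cre had muscle markers of 222 CPM, with Cacng1 at 0.29 CPM and Cacng6 at 0. Without Cre, WT mouse 14702-6 had Cacng1 at 0.56 CPM and Cacng6 at 0. C201R mouse 14003-2 without Cre had Cacng1 at 0 and Cacng6 at 1.93 CPM. The part of sensory neurons and muscle in these values was not tested. The retinal channel gene Cacna1f stayed at or below 3.00 CPM in all 24 libraries. Cacna1i and Scn3a, which were tested between genotypes with Cre, averaged 2.79 ± 1.48 CPM and 5.12 ± 1.03 CPM in C201R mice and 2.35 ± 0.64 CPM and 4.91 ± 1.1 CPM in WT mice.

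Proteins that hold the channels in place were described beside them. Of 15 genes for anchoring and auxiliary proteins of sodium channels, all tested between genotypes with Cre, 0 were higher and 3 lower in C201R mice, with a median of -0.22, beside 2.29% higher and 1.82% lower of all genes tested. The 3 were Nfasc, Ank3 and Ank2, which encode neurofascin and the ankyrins of the axon initial segment, nodes and axon shaft. Nfasc averaged 160 ± 39.8 CPM in C201R and 270 ± 64.7 CPM in WT mice with Cre (log2 change -0.67 ± 0.17, adjusted p 0.036, edgeR). Ank3 averaged 343 ± 94.8 CPM in C201R and 525.8 ± 103 CPM in WT mice with Cre (log2 change -0.55 ± 0.14, adjusted p 0.040, edgeR). Ank2 averaged 909 ± 136 CPM in C201R and 1318 ± 226 CPM in WT mice with Cre (log2 change -0.47 ± 0.11, adjusted p 0.036, edgeR). Fgf11, of the fibroblast growth factor homologous factors that bind sodium channel tails, was higher with Cre in both genotypes, with log2 changes of 2.66 ± 0.23 in C201R and 2.15 ± 0.24 in WT mice. In that list 5 genes were higher and 5 lower with Cre in C201R mice, and 6 were higher and 3 lower in WT mice, beside 30.5% higher and 26.3% lower of all genes tested in C201R and 27.7% higher and 32.8% lower in WT mice.

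Of 19 calcium channel partners, 17 were tested between genotypes with Cre and 0 were called, with a median of -0.12. With Cre against no Cre, 6 were higher and 3 lower of 15 tested in C201R mice, and 6 were higher and 3 lower of 16 tested in WT mice, beside the same shares of all genes, 30.5% higher and 26.3% lower in C201R and 27.7% higher and 32.8% lower in WT mice. Calm2, a calmodulin gene, had a log2 change of 3.30 ± 0.25 in C201R and 2.58 ± 0.22 in WT mice. Gem, a small GTPase that holds calcium channels back, averaged 14.7 ± 6.09 CPM with Cre and 1.59 ± 1.69 CPM without Cre in C201R mice, and 17.1 ± 5.96 CPM with Cre and 1.90 ± 1.03 CPM without Cre in WT mice. Of the 4 sodium leak channel genes, 0 were called between genotypes with Cre. Unc80, a scaffold of that channel, had a log2 change of -0.63 ± 0.20 (adjusted p 0.099, edgeR). Of 17 genes for sodium and calcium clearance, 1 was higher in C201R mice with Cre and 0 were lower. It was Calb2, the calcium buffer calretinin, at 138 ± 66.6 CPM in C201R and 70.5 ± 15.0 CPM in WT mice with Cre (log2 change 0.73 ± 0.18, adjusted p 0.036, edgeR).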

How the data were processed

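The authors deposited expected counts, TPM and transcript lengths per gene for 24 pulldowns, for which the submitters' processing notes list RSEM 1.2.12 and Bowtie2 2.2.0. The expected count estimates are not whole and were rounded to whole numbers. The deposited TPM values were used only for levels between genes. The genome build, annotation and strand setting are not given in the sources used here; RSEM divides reads shared by similar genes. Library numbers in the descriptions fall into 2 runs, called library series (7 and 17 libraries), whose meaning the labels do not give. Channel genes were matched by symbol; all 40 identifiers were found in GENCODE, 39 with the same symbol.

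Pairs of groups were fitted on their 12 libraries and the interaction on 24, with filterByExpr, TMM factors and library series as a term, in edgeR 4.0.16 (R 4.3.3), tested on simulated data first. The SE is the log2 change over the square root of F. DESeq2 1.42.0 and limma 3.58.1, other scalings, filters, covariates and library sets were alternatives. Each mouse gave 1 library, so p-values measure the spread between mice. No pair of libraries inside a group agreed within sampling noise, and pairs across groups were not compared in this way. Members and gene lists were chosen with earlier results of these data known. Values per library are given for genes called between genotypes with Cre, the most abundant pore-forming and accessory genes, and the largest Cre changes. From each partner list, called genes with the smallest p are given, or else the most abundant. Cacna1d and others outside that rule were chosen after their values were seen. Some genes are counted in the totals but not reported or drawn singly here.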

Additional observations from a re-analysis of the deposited data

Results flagged for a closer look

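Of 56 sets of 6 values compared, 4 held a library far from the other 5, and chance alone flags about 1 in 20 sets. Cacna1h was at 49.0 CPM in WT mouse 14702-4 without Cre, while the others of that group ran from 3.82 to 13.3 CPM. Scn7a was at 59.2 CPM in C201R mouse 14702-9 without Cre, against 11.1 to 15.9 CPM in the rest of its group. Scn2b was at 64.3 CPM in C201R mouse 14003-2 without Cre, against 35.1 to 44.0 CPM. Scn4b was at 71.7 CPM in C201R mouse 14004-5 with Cre, against 84.8 to 90.2 CPM.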

How the results depend on the processing

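The number of channel genes called between genotypes with Cre was 5, and it depended on the processing more than the signs did: in none of the alternatives did 1 of the 5 genes reverse. It was 0 with library totals, 8 with DESeq2, 11 with limma-voom, 3 without the library series term, 1 with the share of Gm26924 as a covariate, 11 in library series 2 only, 10 without mice 14003-1 and 14701-9, and 2 to 7 when 1 library was left out. All 5 genes were among those called by DESeq2, by limma-voom, in library series 2 and without the 2 outlying mice. The 2 outlying mice were marked partly by their low summed channel signal. The labels share no replicate numbers between groups. The number before the dash in a mouse's number is shared by some mice. Libraries with the same prefix in different groups had a mean correlation of deviations of 0.036 over 40 pairs (-0.23 to 0.52). Those with different prefixes had 0.0030 over 176 pairs (-0.61 to 0.53). Mice with the same prefix inside a group were not compared. Mean correlations cannot exclude an effect shared by some mice, and the prefix was not a term in the main fit. With the prefix as a replicate block 0 channel genes were called between genotypes with Cre, and all 5 signs held. Calls were lost without C201R mouse 14703-4 (Cacna1a, Cacna2d1 and Scn4b), without WT mouse 14004-3 (Cacna2d1, Cacng3 and Scn4b), without WT mice 14002-6 or 14702-3 (Cacna2d1 and Scn4b), without C201R mouse 14004-5 (Cacng3 and Scn4b), and for Scn4b alone without C201R mice 14004-2 or 14003-4 or WT mice 14004-6 or 14703-5. For Cre against no Cre, the count of 17 in C201R mice was 11 with the Gm26924 share as a covariate. In WT mice library totals turned Cacnb4 to 0.037, Scn3b to 0.77, Cacnb2 to 0.89 and Scn2b to 0.74 on the log2 scale, of which TMM scaling had called Cacnb4 alone. Counts of 0 without Cre and in the interaction held in each alternative. Depth limits Scn4a, Cacna1f, Cacna1s, Cacng1 and Cacng6, which had too few counts to test in any pair of groups.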
